A study of Mus musculus with 24 samples.

Results

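The genes described here encode the nuclear subunits of the mitochondrial respiratory chain and of the ATP synthase, followed in the hearts of mice with experimental autoimmune myocarditis (EAM). They were chosen by name: protein-coding genes whose symbol starts with Nduf, Uqcr, Cox4, Cox5, Cox6, Cox7, Cox8 or Atp5, together with Sdha, Sdhb, Sdhc, Sdhd and Cyc1. At least 4 of the 24 hearts had to show 10 or more reads of the gene. The rule found 95 genes in the annotation and kept 92 of the 41388 genes of the count table. Cox7b2 and Cox8c had too few reads, and a second locus named Atp5o was not among the counted genes. All 92 had at least 10 reads in every heart, so no member entered through 1 group alone. They comprise 36 subunits of complex I, 4 of complex II, 9 of complex III, 18 of complex IV, 16 of complex V, 8 assembly factors of complex I (symbols starting with Ndufaf) and Atp5s, an ATP synthase-related gene that is not a subunit.

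Wild type male Balb/c mice (BALB/cAnNCrl in the study's methods), 8 to 10 weeks old when immunised, received SCFA adjuvant on days 0 and 7 and pertussis toxin on day 0. EAM mice received a cardiac myosin heavy chain peptide in the emulsion, and control mice received PBS in its place, so the controls carry the adjuvant and the toxin too. Hearts were taken on day 10 (D10), day 15 (D15) or day 21 (D21), with 4 EAM and 4 control hearts a day, and polyadenylated RNA from a piece of each heart was sequenced. Samples were picked by the study, as far as possible, for the presence of inflammation. Total counts ran from 15814863 to 24980864 a heart. The 4 D21 EAM libraries carry another library code than the other 20, so that at D21 code and disease cannot be told apart. The labelled tissue was checked by its defining marker: Myh6, the main myosin heavy chain of the adult mouse cardiomyocyte, lay between 1768 and 13736 CPM (counts scaled per 1e6 reads, after TMM scaling of the libraries) in all 24 hearts.

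The respiratory chain passes electrons from NADH (complex I) and succinate (complex II) through complex III to oxygen at complex IV, and the proton gradient this builds drives ATP synthesis at complex V. Most subunits are encoded in the nucleus and a few in mitochondrial DNA, and the heart, which beats on oxidative metabolism, holds the chain at very high levels. Several subunits of complex IV come in isoforms: Cox6a2, Cox7a1 and Cox8b are the forms typical of heart and skeletal muscle in the mouse, whereas Cox6a1, Cox7a2 and Cox8a are made in most tissues.

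In control hearts the levels differed widely from subunit to subunit. Per kilobase of exon, the highest mean level over the 12 control hearts was that of Atp5a1, the alpha subunit of the ATP synthase motor head, at 1206 CPM per kb ± 88.0 (SD, n = 12). Cox6a2 followed at 967 ± 91.9 and Atp5b, the catalytic beta subunit, at 913 ± 66.8. The range of Cox6a2 (773 to 1126) overlapped those of Atp5a1 (1079 to 1396) and Atp5b (806 to 1038). Compared within the same heart, Atp5a1 was above Cox6a2 in 12 of 12 control hearts and Cox6a2 above Atp5b in 11 of 12. The muscle isoforms stood above their widely made partners on this scale: Cox6a2 above Cox6a1 (109 ± 8.27), Cox7a1 (564 ± 51.1) above Cox7a2 (278 ± 22.4) and Cox8b (610 ± 70.1) above Cox8a (190 ± 13.8). Cox6b2, a testis form of Cox6b, was lowest at 2.98 ± 0.755 CPM per kb, while its partner Cox6b1 stood at 691 ± 60.0. The medians of complexes I, II, III, IV and V were 190, 348, 380, 247 and 246 CPM per kb, and that of the complex I assembly factors was 19.1. Exon lengths are the union over all annotated transcripts, which sets the level of a gene with long rare transcripts low, such as Ndufb2 with 5628 bases of exon.

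**Figure D1:**
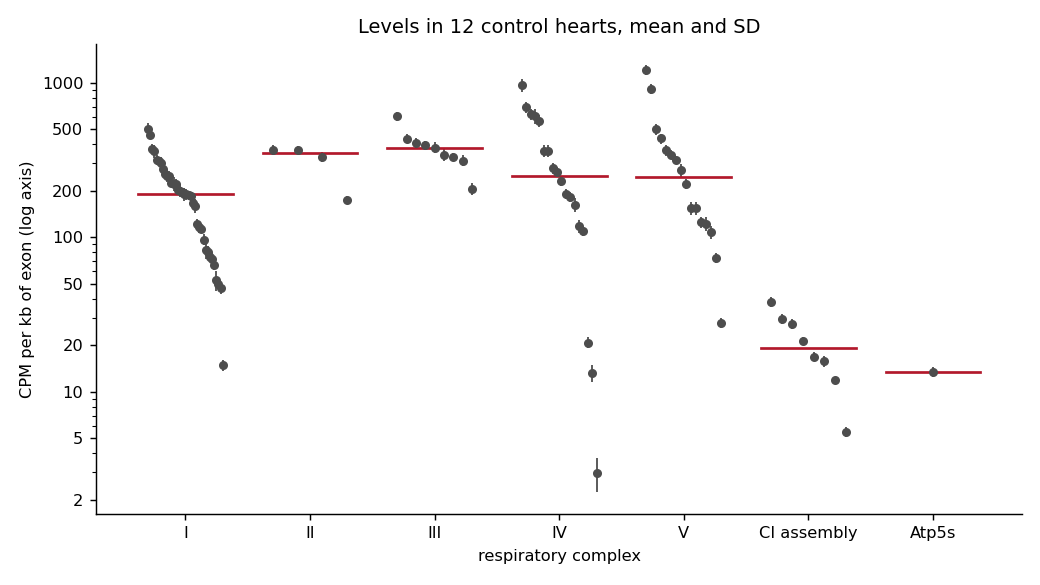
Each point is 1 gene's mean level in the 12 control hearts in CPM per kb of exon (log axis), grouped by complex, with bars for the SD and a red line for the median of each group. The complex I assembly factors (median 19.1) and Atp5s lie below most subunits, and complex IV spans the widest range, from Cox6b2 (2.98) to Cox6a2 (967).

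Because the results below turn on which complex IV isoforms fell and which did not, the 250 bases before the transcription start of 4 of them are shown, from RefSeq on GRCm38.p6, 5′ to 3′ in the direction of the gene. The 4 were picked for their D15 values: Cox6a1 and Cox8a are widely made forms that were not called lower at D15, and Cox8b and Cox7a1 are the muscle forms that fell most. Capitals mark matches, on either strand, to GCGCANGCG (letters of an NRF1 type site) or CCGGAAG (GABPA type); TNAAGGTCA (ERR type) and AAGATGGCG (YY1 type) were searched as well, and no pair of different motifs overlapped within these stretches. The stretches are chr5:115348959-115349208, minus strand (Cox6a1), chr19:7217617-7217866, minus strand (Cox8a), chr7:140900447-140900696, minus strand (Cox8b) and chr7:30183921-30184170, plus strand (Cox7a1). They lie upstream of the RefSeq starts of these genes; in GENCODE M21 the genes span chr5:115345642-115348981, chr19:7215153-7217616, chr7:140898945-140900446 and chr7:30184144-30186078, so the last bases of the Cox6a1 and Cox7a1 stretches fall within the annotated first exon.
Cox6a1: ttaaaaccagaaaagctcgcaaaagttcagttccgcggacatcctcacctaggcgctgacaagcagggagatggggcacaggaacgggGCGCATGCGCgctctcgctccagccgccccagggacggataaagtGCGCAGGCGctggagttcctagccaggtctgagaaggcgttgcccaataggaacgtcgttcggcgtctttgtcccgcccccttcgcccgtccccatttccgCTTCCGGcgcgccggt
Cox8a: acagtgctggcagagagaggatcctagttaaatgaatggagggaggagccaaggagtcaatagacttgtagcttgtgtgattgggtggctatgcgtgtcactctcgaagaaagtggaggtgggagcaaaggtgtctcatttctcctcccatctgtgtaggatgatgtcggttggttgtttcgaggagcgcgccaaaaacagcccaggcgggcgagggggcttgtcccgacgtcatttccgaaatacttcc
Cox8b: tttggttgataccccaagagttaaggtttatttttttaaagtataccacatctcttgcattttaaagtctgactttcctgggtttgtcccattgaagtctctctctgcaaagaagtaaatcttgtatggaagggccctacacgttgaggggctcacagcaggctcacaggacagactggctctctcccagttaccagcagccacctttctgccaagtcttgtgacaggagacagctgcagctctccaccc
Cox7a1: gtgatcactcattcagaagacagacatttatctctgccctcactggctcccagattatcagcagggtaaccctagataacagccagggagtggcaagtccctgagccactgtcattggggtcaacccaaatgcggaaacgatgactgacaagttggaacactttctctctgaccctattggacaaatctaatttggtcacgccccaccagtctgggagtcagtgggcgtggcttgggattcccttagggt
The Cox6a1 stretch holds NRF1 letters at 2 places and GABPA letters at 1. In Cox8a a GABPA match starts 5 bases before the transcription start and runs past the end of the stretch, and another lies 32 bases downstream. The Cox8b and Cox7a1 windows hold none of the 4 motifs. The windows of Cox7a2 and Cox7a2l hold none either, while those of Ndufs6, Ndufb10 and Ndufaf4, all called lower at D15, hold NRF1 letters. Cox6a2 was not among the genes matched to a window.

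Over the 75 members that a RefSeq window of 300 bases (250 before to 50 after the start) could be matched to, NRF1 letters stood in 22 (29.3%) against 13.9% of the 11399 genes tested at D15 with such a window and 7.03% of all 27025 genes with one. The shares for GABPA letters were 24%, 18.2% and 9.93%, those for YY1 letters 10.7%, 3.19% and 1.64%, and those for ERR letters 4.0%, 0.886% and 1.43%. These are matches to letters and describe the windows only, and no test was run on the shares.

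At D10 no nuclear respiratory chain gene was called different between EAM and control hearts. None of the 92 passed the false discovery rate of 0.01 in the quasi-likelihood test of edgeR (Benjamini-Hochberg adjusted) in either direction, and none had an unadjusted p under 0.05; DESeq2, the likelihood ratio test and limma-voom called none either. The background was as empty: 0.00% of 15029 genes were called lower, 0.00% lower by 2-fold or more, and 0.00% higher. At an unadjusted p under 0.05, 833 of all genes were lower and 1459 higher. The median log2 fold change of the members was -0.11, between -0.25 (Ndufaf1, an assembly factor) and 0.16 (Cox6a1), beside -0.01 over all genes tested, and 88 of 92 lay below 0. The lowest values after Ndufaf1 were those of Atp5s (-0.24), Ndufa10 (-0.23), Cox4i2 (-0.22) and Cyc1 (-0.21), and the highest after Cox6a1 those of Cox8a (0.15), Ndufaf8 (0.07), Ndufb4 (0.02) and Atp5e (-0.02).

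That small shift rested mainly on 1 heart. The summed level of the 92 genes was 30359, 44282, 45279 and 40272 CPM in the 4 D10 EAM hearts and 42645, 41294, 42999 and 46273 CPM in the controls, so EAM replicate 1 was low and the other three stood among or near the controls. Without it the median log2 fold change was 0.00. In replicate 1, 89 of 92 members lay below all 4 controls, as did 41.8% of all genes tested. In replicates 2, 3 and 4 the same count was 11, 3 and 73 (22.3%, 29.4% and 18.1% of all genes). In these hearts 23, 58 and 0 members lay above all 4 controls, where 25.8%, 33.9% and 21.0% of all genes did. No member had all 4 EAM hearts below all 4 controls, against 3.75% of all genes. Ptprc (CD45, the common leucocyte antigen) measured 194, 27.7, 56.7 and 41.6 CPM in EAM replicates 1 to 4, where the controls ranged from 23.9 to 38.6. Replicate 3, with the second highest Ptprc, had the highest summed level of the 92 genes in its group. Replicate 1 also had the lowest summed cardiomyocyte list. The part of these cells in the result was not tested.

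At D15 nearly the whole set fell under TMM scaling, though not relative to a list of cardiomyocyte genes. Of the 92 genes, 88 were lower in EAM at a false discovery rate of 0.01 (edgeR, as above), 67 of them by at least 2-fold, and 1 was higher. The background on that day was high: 31.1% of 15693 genes were called lower, 12.9% lower by at least 2-fold and 33.2% higher. Scaled by total counts, 44 members were lower by at least 2-fold, where 9.92% of all genes were. The median log2 fold change of the members was -1.14, or 2.20-fold lower, beside 0.02 over all genes tested, and 82 of the 92 lay within 0.25 of the median of the members. In 88 members every EAM heart was below every control heart, as in 35.9% of all genes. In bulk tissue, fewer cells of a type and less RNA per cell cannot be told apart.

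**Figure D2:**
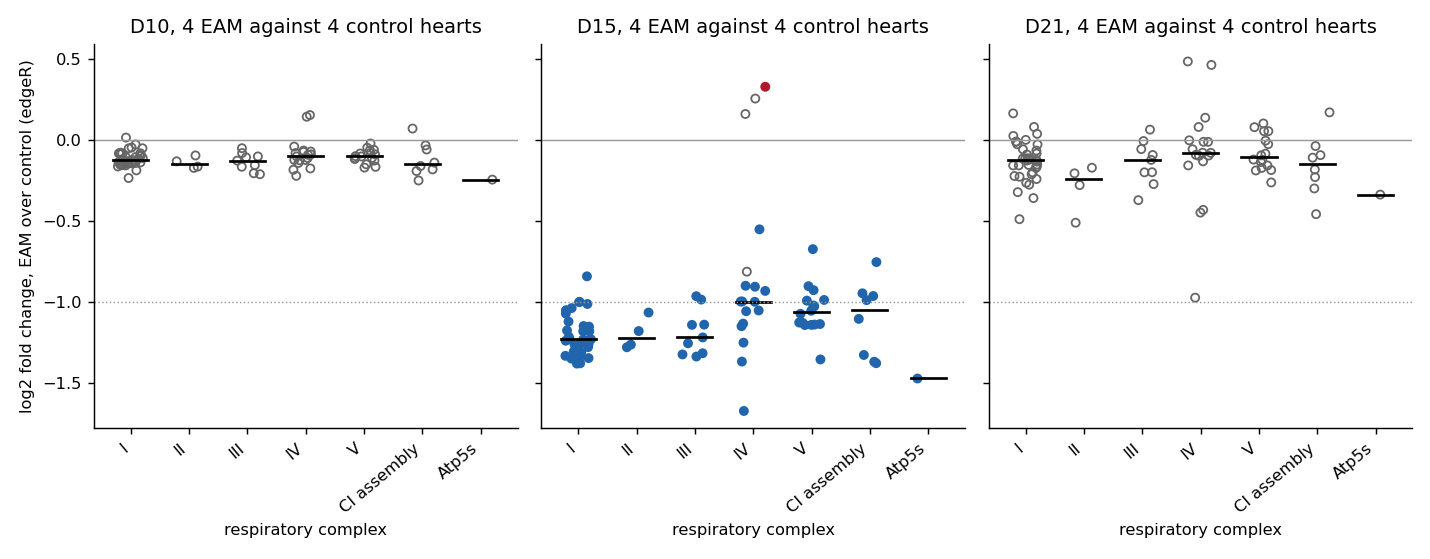
Log2 fold change of EAM over control hearts (edgeR, 4 against 4) for each of the 92 genes on D10, D15 and D21, by complex; filled blue points are lower and the filled red point higher at a false discovery rate of 0.01, open points were not called, black lines are medians, and the dotted line marks a 2-fold fall. At D15 the points lie around -1.14 except 3 genes of complex IV above 0, and on D10 and D21 the medians lie near 0.

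The fall was seen in all 4 D15 EAM hearts, to different depths. The 92 genes together reached 18281, 14132, 24984 and 16457 CPM in the EAM hearts, against 39769, 43043, 40462 and 43516 CPM in the controls, so the EAM mean was 44.3% of the control mean and the groups did not overlap. As a share of all reads, without TMM scaling, they made up 2.03, 1.61, 2.65 and 1.83% in EAM and 3.95, 4.19, 3.92 and 4.17% in control hearts. Replicate 2 was the lowest and replicate 3 the highest of the EAM hearts on both scales. In each of the 4 EAM hearts 89 of 92 members lay below all 4 controls, where 42.4% to 43.8% of all genes tested did.

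**Figure D3:**
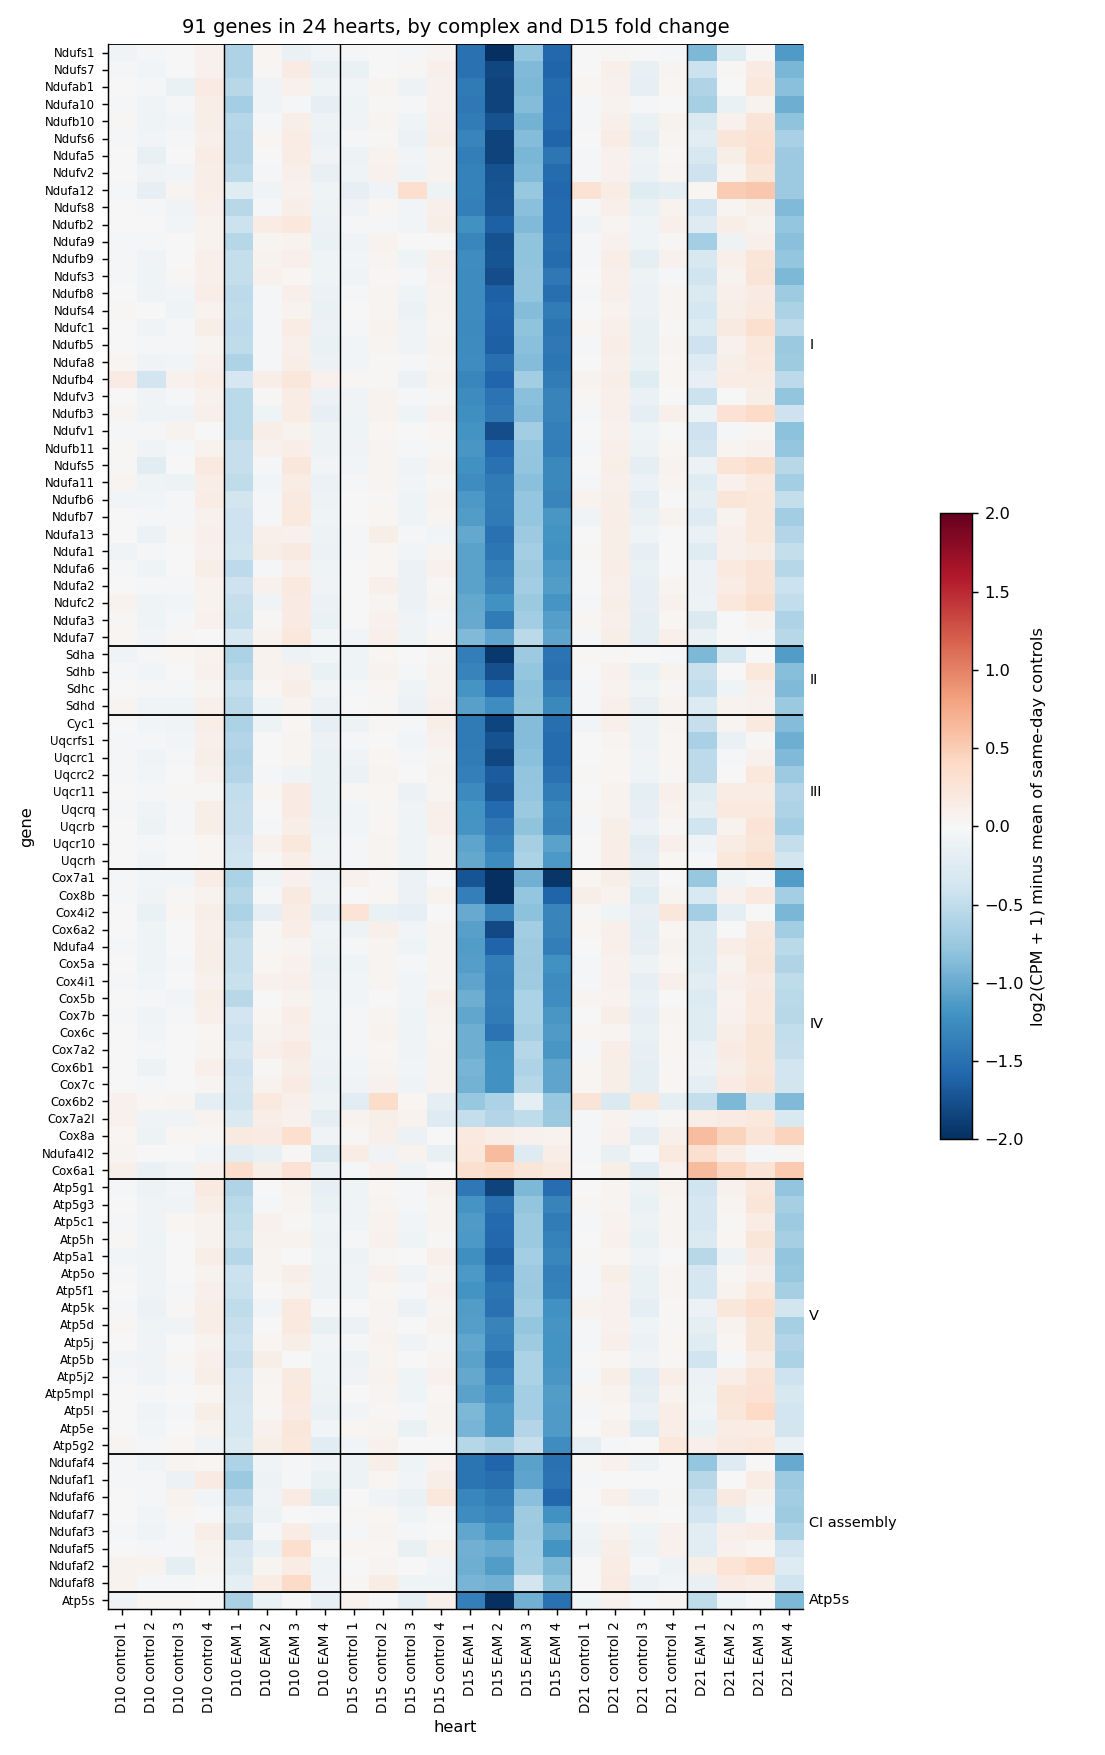
Colours give log2(CPM + 1) of 91 of the 92 genes (rows, grouped by complex and ordered by D15 log2 fold change) in each of the 24 hearts (columns) minus the mean of the same day's 4 controls; the scale is capped at 2 either way and the lowest value, -2.65, is in D15 EAM replicate 2. The D15 EAM columns are blue in all rows but a few of complex IV, and D10 EAM replicate 1 and D21 EAM replicates 1 and 4 are paler blue.

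Complex I, which takes electrons from NADH, fell in full: all 36 subunits passed the test, 33 of them by at least 2-fold, with a median of -1.23 and a range from -1.38 to -0.84. Its 7 core subunits encoded in the nucleus, which hold the flavin and the iron-sulphur clusters or line their path, had a median of -1.30 and the 29 accessory subunits one of -1.18. Ndufs1, the largest subunit with several iron-sulphur clusters, measured 319, 210.3, 517 and 302 CPM in the EAM hearts and 871, 907, 885 and 937 CPM in the control hearts (log2 fold change -1.38, SE 0.23, adjusted p = 0.000474). Ndufv1, which binds the flavin where NADH gives up its electrons, measured 343, 229.6, 487 and 306 CPM in the EAM hearts and 740.4, 815, 794 and 809 CPM in the control hearts (log2 fold change -1.17, SE 0.20, adjusted p = 0.000474). In both the highest EAM heart was replicate 3, the lowest replicate 2, and none reached the controls. Ndufs7, the subunit with the last iron-sulphur cluster before ubiquinone, fell as far as Ndufs1 (log2 fold change -1.38, SE 0.18, adjusted p = 0.000108). The smallest fall in the complex was Ndufa7 at -0.84.

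Complex II, the succinate dehydrogenase that also serves the citric acid cycle, fell in all 4 subunits, from -1.28 to -1.06, each by at least 2-fold. Sdha, its flavin subunit, measured 577, 394, 906 and 539 CPM in the EAM hearts and 1409, 1543, 1491 and 1567 CPM in the control hearts (log2 fold change -1.28, SE 0.22, adjusted p = 0.000571). Sdhb, the iron-sulphur subunit, measured 296, 220.3, 435 and 266 CPM in the EAM hearts and 705, 782, 724 and 785 CPM in the control hearts (log2 fold change -1.26, SE 0.19, adjusted p = 0.000215). Both were lower in every EAM heart than in any control.

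Complex III, which hands electrons from ubiquinol to cytochrome c, fell in all 9 members, 7 of them by at least 2-fold, with a median of -1.22. Cyc1, the cytochrome c1 subunit, measured 323, 243, 474 and 303 CPM in the EAM hearts and 811, 887, 841 and 938 CPM in the control hearts (log2 fold change -1.34, SE 0.18, adjusted p = 0.000136). The Rieske iron-sulphur protein Uqcrfs1 measured 312, 250.04, 457 and 287 CPM in the EAM hearts and 811, 841, 806 and 891 CPM in the control hearts (log2 fold change -1.32, SE 0.17, adjusted p = 9.48e-05). Uqcrc1, a core protein that carries no redox group, moved with them (log2 fold change -1.31, SE 0.19, adjusted p = 0.000196), with EAM hearts at 391 to 778 CPM and controls at 1309 to 1435 CPM. The 9 members ranged from -1.34 to -0.96.

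Complex V, the ATP synthase, fell in all 16 subunits, 11 of them by at least 2-fold, with a median of -1.06. Atp5b measured 1864, 1416, 2527 and 1695 CPM in the EAM hearts and 3649, 4027, 3890 and 4041 CPM in the control hearts (log2 fold change -1.02, SE 0.18, adjusted p = 0.000665). Atp5c1, the gamma subunit of the central stalk, measured 439.6, 330.2, 583 and 366 CPM in the EAM hearts and 924, 1022, 931 and 1007 CPM in the control hearts (log2 fold change -1.14, SE 0.17, adjusted p = 0.000204). The 3 genes for subunit c, which make the same mature protein of the rotor ring, fell by different amounts. Atp5g1 had a log2 fold change of -1.35, Atp5g3 of -1.14 and Atp5g2 of -0.67, with EAM hearts at 102 to 197, 348 to 566 and 88.3 to 154 CPM against controls at 346 to 390.04, 929 to 1020 and 202 to 223 CPM. The 8 assembly factors of complex I all fell (median -1.04), 4 of them by at least 2-fold, Ndufaf4 and Ndufaf1 among the most (-1.38 and -1.37, adjusted p = 5.5e-06 and 4.91e-06 in edgeR's test) and Ndufaf8 the least (-0.75). Atp5s had the largest fall after Cox7a1 (log2 fold change -1.47, SE 0.20, adjusted p = 0.00012).

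Complex IV, the cytochrome c oxidase, was the mixed one at D15 under TMM scaling: 14 of its 18 members fell, 7 of them by at least 2-fold, Cox6a1 rose, and Cox8a, Ndufa4l2 and Cox6b2 were not called. The subunits without a second common form fell: Cox5a and Cox5b, which surround the catalytic core, had log2 fold changes of -1.06 and -0.997, with EAM hearts at 189 to 299 and 163 to 273 CPM against 469.7 to 517 and 406 to 457 CPM in controls. Cox4i1, the main form of the largest nuclear subunit, measured 472, 373, 600.2 and 409.6 CPM in the EAM hearts and 945, 1028, 946 and 1024 CPM in the control hearts (log2 fold change -1.05, SE 0.15, adjusted p = 0.000139). Its minor partner Cox4i2, known as the lung form, fell as well (log2 fold change -1.25, SE 0.18, adjusted p = 0.000151), at 3.47 to 5.44 against 9.16 to 12.8 CPM. Cox6b1 (-0.90), Cox6c (-0.99) and Cox7b (-0.996) were called lower too.

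The muscle isoforms fell and the widely made ones moved less, under TMM scaling; the test of the balance within each pair follows the values. Cox7a1 had the largest fall of all 92 genes and measured 91, 47.8, 157 and 78.2 CPM in the EAM hearts and 323, 308, 281 and 308 CPM in the control hearts (log2 fold change -1.67, SE 0.30, adjusted p = 0.00066). Its partner Cox7a2 fell by less (log2 fold change -0.93, SE 0.13, adjusted p = 0.000184), and Cox7a2l, a relative that takes part in supercomplex formation, by less again (log2 fold change -0.55, SE 0.10, adjusted p = 0.000796), at 159.6 to 193 CPM in EAM and 224 to 290.2 CPM in control hearts. All 3 still had every EAM heart below every control.

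Cox8b measured 84.5, 48.6, 128 and 72 CPM in the EAM hearts and 219, 227, 203 and 231 CPM in the control hearts (log2 fold change -1.37, SE 0.24, adjusted p = 0.000649). Cox8a measured 137, 131, 127 and 125 CPM in the EAM hearts and 121, 128, 109.7 and 119 CPM in the control hearts (log2 fold change 0.16, SE 0.07, adjusted p = 0.0471), and the groups overlapped. Cox6a2 measured 309, 188, 406 and 260.4 CPM in the EAM hearts and 617, 706, 639 and 683 CPM in the control hearts (log2 fold change -1.15, SE 0.20, adjusted p = 0.000617). The EAM hearts thus lay far below the controls for both muscle forms and at the upper edge of the controls for Cox8a.

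Cox6a1 was the only member called higher on this day, at 98.4, 103, 92.8 and 89.8 CPM in the EAM hearts and 77.3, 83.7, 73.9 and 78.8 CPM in the control hearts (log2 fold change 0.33, SE 0.07, adjusted p = 0.00137). Every EAM heart was above every control, by a small margin, and the share of all genes separated upward in this way is not given here. With all 24 hearts in 1 fit Cox6a1 was not called, so that no member was higher. Under scaling by total counts, or against all 12 control hearts, Cox8a was called higher with it, where 39.2% and 36.6% of all genes were called higher.

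Ndufa4, now counted as a subunit of complex IV, measured 234, 168, 309 and 196 CPM in the EAM hearts and 500.4, 527, 481 and 529 CPM in the control hearts (log2 fold change -1.13, SE 0.17, adjusted p = 0.000223). Its relative Ndufa4l2, a hypoxia-induced gene, measured 25.6, 34.5, 18.1 and 24 CPM in the EAM hearts and 24.3, 20.9, 23 and 19.6 CPM in the control hearts and was not called (log2 fold change 0.26, SE 0.18, adjusted p = 0.208), with EAM replicate 2 the highest and replicate 3 the lowest of all 8. Cox6b2 was near the lower end of detection at 1.31 to 2.45 against 2.4 to 4.07 CPM (log2 fold change -0.81, SE 0.26, adjusted p = 0.0169).

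The balance between the isoforms of a pair was also measured as the ratio of their reads within a heart, which needs no scaling between libraries; it is not corrected for length and is read only between groups. At D15 there were 1.82 to 4.37 reads of Cox6a2 for each read of Cox6a1 in EAM hearts and 7.98 to 8.67 in controls. The ratio of Cox7a1 to Cox7a2 was 0.417 to 0.868 in EAM and 1.09 to 1.23 in control hearts, and that of Cox8b to Cox8a was 0.370 to 1.01 and 1.78 to 1.94. All 3 ratios were lower in every D15 EAM heart than in any control, with differences in mean log2 ratio of -1.53, -0.84 and -1.61.

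The ratio of Ndufa4l2 to Ndufa4 was higher in every EAM heart, at 0.0584 to 0.206 against 0.0371 to 0.0486, and so were those of Atp5g2 to Atp5g1 and to Atp5g3 (differences in mean log2 ratio of 0.69 and 0.46). The ratio of Cox4i2 to Cox4i1 overlapped between the groups. At D21 the ratio of Cox6a2 to Cox6a1 was still lower in every EAM heart (3.38 to 7.52 against 7.66 to 8.13), as was that of Cox7a1 to Cox7a2 (0.724 to 0.962 against 1.12 to 1.204), while that of Cox8b to Cox8a overlapped.

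Each of these 8 separated ratios had p = 0.0286 in a two-sided exact permutation test (n = 4 and 4), the smallest p that 4 against 4 hearts allow. None passed 0.05 after Benjamini-Hochberg adjustment over the 21 tests of 7 pairs on 3 days, where the adjusted p was 0.075 for each. At D10 no ratio was separated, and the differences of the 3 muscle pairs were -0.28, -0.15 and -0.29 on the log2 scale (adjusted p = 0.263, 0.1 and 0.1, exact permutation test).

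**Figure D4:**
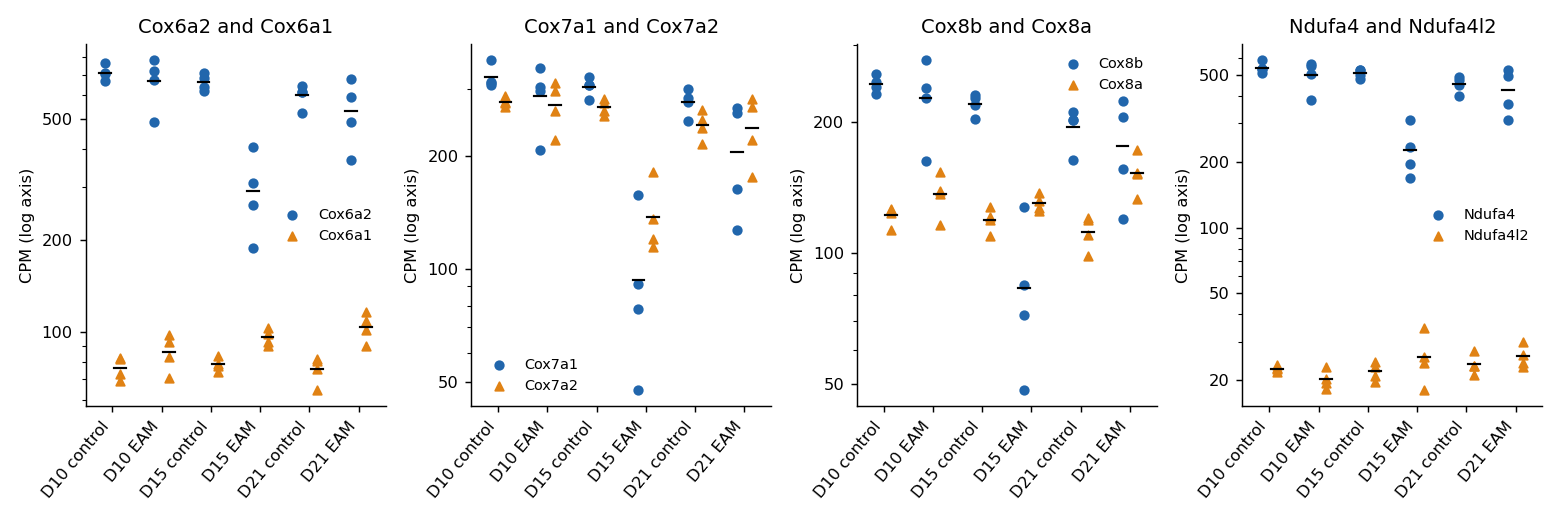
CPM (log axis) of 4 pairs of related genes in every heart, by group; circles are the first gene named in each panel, triangles the second, and short lines are means of 4 hearts. At D15 the circles drop in each panel, whereas the triangles of Cox6a1, Cox8a and Ndufa4l2 stay at or above the level of their controls in most hearts and those of Cox7a2 drop less than Cox7a1.

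Markers of other cell types moved with the D15 result. The leucocyte list rose: 15 of its 17 genes tested were higher and none lower, and its summed level was 4057 to 5768 CPM in EAM hearts and 518 to 612 CPM in controls. The cardiomyocyte list of 20 genes shares none with the 92. Most of them serve the contractile apparatus or calcium handling, and Mb (myoglobin), Ckm (muscle creatine kinase) and Des (desmin) are on it too. The list fell in 17 genes and rose in none, with a median of -1.15 and a summed level of 19980 to 41549 against 62161 to 70915 CPM. The fibroblast list summed to 8384 to 17050 against 2150 to 2689 CPM, 4 of 8 genes higher. The endothelial list was lower in 7 of 7 and the smooth muscle and pericyte list in 4 of 8 genes. The brown adipocyte list (Ucp1, Cidea, Elovl3 and Ppargc1a) was lower in both of its 2 genes tested, Ppargc1a (-1.45) and Cidea (-0.88), and summed to 39.3 to 82.7 CPM in EAM and 131 to 158 CPM in control hearts, most of it Ppargc1a, a coactivator that cardiomyocytes express too. Its defining gene Ucp1 lay at 0.105 to 0.928 CPM in EAM and 0 to 4.31 CPM in control hearts. Of the skeletal muscle list, Tnnt3 was higher (log2 fold change 1.27, at 0.97 to 2.28 against 0.365 to 0.826 CPM), Mylpf was not called (-0.29), and Myh1, Myh2, Myh4 and Actn3 were too low to be tested. None of the 3 erythroid, 3 white adipocyte or 5 atrial genes tested was called on this day. For the lists other than that of cardiomyocytes, their part in the members' values was not tested.

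Set against the cardiomyocyte list, the respiratory chain genes stood close to their control level. The ratio of the 2 sums was 0.692, 0.707, 0.601 and 0.573 in the D15 EAM hearts and 0.64, 0.65, 0.606 and 0.614 in the controls, with the control values inside the EAM range. When counts were scaled to the cardiomyocyte list in place of TMM, a scaling that moved the median of all genes to 1.26, the median of the 92 was 0.04. On that scale 0 were lower and 4 higher at a false discovery rate of 0.01 in edgeR's test: Cox6a1, Ndufa4l2, Cox8a and Cox7a2l, with log2 fold changes of 1.59, 1.58, 1.41 and 0.69. Of all genes, 2.03% were called lower and 69.6% higher on that scale. The first 3 of these are the members whose log2 fold change was above 0 with TMM.

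**Figure D5:**
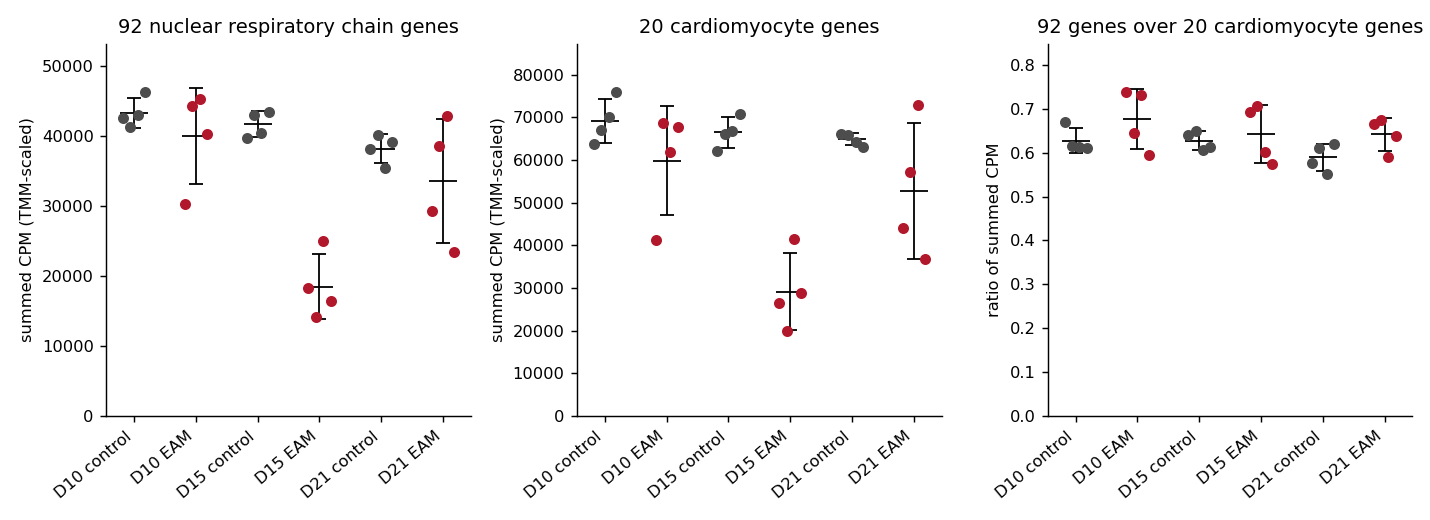
Summed TMM-scaled CPM of the 92 genes (left) and of the 20 cardiomyocyte genes (middle), and the ratio of the 2 sums (right), in each heart, with the mean and SD of 4 hearts in black, controls in grey and EAM in red. Both sums fall at D15 and lie apart from their controls, and the ratio stays between 0.552 and 0.737 in all 24 hearts.

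Other genes of the pathway fell at D15 with the subunits. Of 37 assembly and maturation factors outside the 92, 35 were lower and none higher (median -0.95). The largest falls were those of Lyrm7, a chaperone of the Rieske protein (-1.52), and Taco1, a translational activator of the mitochondrial Co1 message (-1.51). The electron carriers and coenzyme Q genes were lower in 15 of 16 (median -1.42): cytochrome c (Cycs) changed by -1.34, Etfdh, which feeds electrons from fatty acid oxidation to ubiquinone, by -1.74, and Coq10b by 0.17 without a call. Of the 7 genes of nucleotide, phosphate and phosphocreatine exchange, 6 were lower. Slc25a4, the heart form of the ATP/ADP carrier, changed by -1.29, while its widely made form Slc25a5 was not called (-0.04). Atpif1, the ATP synthase inhibitor, was not called either (-0.14).

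The 13 subunits encoded in mitochondrial DNA split in these counts. The 7 genes mt-Nd1, mt-Nd2, mt-Nd4, mt-Nd5, mt-Nd6, mt-Cytb and mt-Co1 were lower at D15, from -1.24 to -0.91. The 6 others, mt-Co2, mt-Co3, mt-Atp6, mt-Atp8, mt-Nd3 and mt-Nd4l, were not called, and their counts ranged widely within the controls alone: mt-Co3 measured 81.7, 539, 2781 and 849 CPM in the 4 D15 controls, whereas mt-Co1 measured 12445, 14355, 13897 and 13866. Sums over the 13 genes rest mainly on the first 7 and were 25762 to 35765 CPM in EAM and 52516 to 64685 CPM in control hearts.

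At D21 no member was called. With 473 genes lower (3.10% of 15266), 177 lower by at least 2-fold (1.16%) and 719 higher (4.71%) as background, 0 of the 92 passed in either direction in edgeR's test. At an unadjusted p under 0.05 in that test, 4 were lower and 2 higher. The share of all genes at that level is not given here, so these counts are not read as a result about the members. DESeq2 called 2 higher (Cox6a1 and Cox8a), where it called 15.9% of all genes higher. With all 12 control hearts 11 were lower, among them Ndufs1, Ndufv1, Sdha, Uqcrfs1 and Cox7a1, and 2 higher, where 18.2% of 15630 genes were lower and 25.1% higher. The median was -0.12, beside -0.01 over all genes, and 76 of 92 lay below 0. In 2 members, Cox6b2 and the assembly factor Ndufaf7 (named after its values were seen), all EAM hearts were below all controls, against 18.7% of all genes.

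Cox6a1 and Cox8a were highest at D21. Cox6a1 measured 117, 101, 90.3 and 109 CPM in the EAM hearts and 75.6, 81.9, 64.7 and 80.3 CPM in the control hearts (log2 fold change 0.49, SE 0.12, adjusted p = 0.0168), and Cox8a measured 172, 152, 133 and 152 CPM in the EAM hearts and 109.99, 119, 98.7 and 121 CPM in the control hearts (log2 fold change 0.47, SE 0.11, adjusted p = 0.0163). For both, each EAM heart was above each control, although neither passed 0.01. The share of all genes separated upward in this way is not given here. At the other end were Cox6b2 (log2 fold change -0.97, SE 0.28, adjusted p = 0.0324), Sdha (log2 fold change -0.51, SE 0.22, adjusted p = 0.104), Ndufs1 (log2 fold change -0.49, SE 0.22, adjusted p = 0.121), Ndufaf4 (-0.46) and Cox4i2 (-0.45). Sdha measured 769, 1142, 1417 and 659 CPM in the EAM hearts and 1450, 1458, 1417 and 1397 CPM in the control hearts, so EAM replicate 3 stood level with the controls and replicate 4 far below them. Among the highest values not called were also Ndufaf2 (0.17), Ndufa12 (0.17) and Ndufa4l2 (0.14).

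The D21 EAM hearts were unlike each other. The summed 92 genes measured 29303, 38623, 42942 and 23427 CPM against 38208, 40224, 35448 and 39140 CPM in controls, so replicates 1 and 4 lay below every control and replicate 3 above every control. Of the 92 genes, 67, 13, 2 and 88 lay below all 4 controls in EAM replicates 1 to 4, where 43.3%, 36.8%, 31.2% and 46.2% of all genes did, and 72 lay above all controls in replicate 3, against 33.9% of all genes. Leaving out replicate 4 gave a median of 0.02, and leaving out replicate 3 gave -0.24 with 2 members called higher, where 16.6% of all genes were. The cardiomyocyte list summed to 44069, 57266, 72891 and 36711 CPM in the same 4 hearts, in the same order as the 92 genes, and the leucocyte list to 4767, 2408, 1458 and 4445 CPM, where control sums ranged from 454 to 783 CPM.

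Markers of other cell types and tissues also moved at D21. The 5 atrial genes (Myl7, Myl4, Sln, Nppa and Bmp10) were all lower in EAM, with a median of -7.41 and sums of 55.8 to 181 CPM in EAM and 1770 to 2789 CPM in control hearts. The white adipocyte list summed to 0.166 to 5.88 against 14.8 to 38.9 CPM. The fibroblast list, with 3 of 8 genes called higher, summed to 5029 to 15111 CPM in EAM and 2466 to 3079 CPM in control hearts. The endothelial (797 to 1294 against 1328 to 1587 CPM, 1 of 7 genes called), smooth muscle and pericyte (979 to 2094 against 2448 to 2588 CPM, 0 of 8) and brown adipocyte sums (44.96 to 134.7 against 139 to 145 CPM, 0 of 2) were lower in all EAM hearts than in all controls. At D10 the atrial sum went the other way, 583 to 2047 in EAM against 208 to 507 CPM, and at D15 the groups overlapped. The part of these tissues and cells in the members' values was not tested.

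Among the pathway lists at D21, 1 of 37 assembly and maturation factors was lower (Cox15, -0.49) and Atpif1 was higher (80.5, 72.7, 71.8 and 65.2 CPM in EAM against 49, 55.5, 46.3 and 53.4 CPM in control hearts, log2 fold change 0.53, adjusted p = 0.00719 in edgeR's test), with all EAM hearts above all controls. None of the electron carrier, exchange or mitochondrially encoded genes was called.

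The change of the EAM effect between days was tested itself, in 1 fit of all 24 hearts. Both differences given here use the D15 hearts and so share samples. The D21 EAM libraries alone carry another library code, so the difference from D15 to D21 and the code cannot be told apart. From D10 to D15 the effect became more negative in 87 of the 92 genes and more positive in none, where 16.7% of 16318 genes became more negative. The median difference was -1.08, and the largest were Cox7a1 (-1.54), Ndufs7 (-1.30) and Cox8b (-1.29). The 5 that did not pass were Cox7a2l (-0.53), Cox8a (-0.03), Cox6a1 (0.12), Ndufa4l2 (0.38) and Cox6b2 (-0.80). From D15 to D21 the effect became more positive in 76 genes and more negative in none, where 8.47% of all genes became more positive, with a median difference of 1.02 and Ndufa12 (1.49), Ndufs6 (1.33) and Ndufb3 (1.28) ahead. The count of 76 was 2 with the replicate number as a block within each day, where 0.919% of all genes became more positive. It was 39 without D21 EAM replicate 2 (3.90% of all genes). It also stood at 40 without D21 control replicate 3 (4.23%), 42 without D21 EAM replicate 3 (4.45%), 45 without D15 EAM replicate 4 (4.40%), 48 without D15 control replicate 2 (4.73%) and 49 without D21 control replicate 1 (4.64%). Scaled to the cardiomyocyte list, 2 members passed from D10 to D15 (Cox7a1 lower, -0.63, and Ndufa4l2 higher, 1.48), where 0.895% of all genes became more negative and 30.2% more positive. From D15 to D21 0 passed on that scale, where 0.190% became more positive.

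Among the control hearts alone 1 member was called. From D10 to D15 none of the 92 passed, where 0.0914% of 15311 genes were lower, and the median difference was -0.03. From D10 to D21 the median was -0.16 with 89 of 92 below 0. At an unadjusted p under 0.05, 63 members were lower and none higher, beside 2032 lower and 2277 higher of all genes. After adjustment 1 passed, where 0.986% of all genes were lower: Cox6c, a small structural subunit of complex IV, at 461, 445, 463 and 473 CPM on D10 and 383, 388, 343 and 386 CPM on D21 (log2 difference -0.29, adjusted p = 0.00639 in edgeR's test). Its control groups did not overlap. Markers of other cell types differed between the same control groups without overlap. From D10 to D21 the atrial sum went from 208 to 507 CPM up to 1770 to 2789 CPM, and the white adipocyte sum from 6.56 to 12.4 up to 14.8 to 38.9 CPM. The smooth muscle and pericyte sum went from 1960 to 2401 up to 2448 to 2588 CPM and the endothelial sum from 1234 to 1301 up to 1328 to 1587 CPM. The brown adipocyte sum went down, from 144.98 to 160.96 CPM at D10 to 138.99 to 144.93 CPM at D21. The sum of the mitochondrially encoded subunits went down as well, from 52923 to 72584 CPM to 46987 to 50683 CPM. The part of all these in the members' values was not tested. DESeq2 called 21 members lower in that comparison, where it called 3.64% of all genes lower, and the count was 0 when any 1 of the 8 hearts other than D21 control replicate 4 was left out.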

How the data were processed

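RNA from a piece of each of 24 hearts was sequenced as 75-base read pairs. The deposited values are raw counts per gene; the authors aligned reads to GRCm38 with HISAT2 (version 2.0.4 in the submitters' processing notes), removed duplicates with Picard and counted Ensembl genes with featureCounts. For use of strand in the counting, the setting is not given in the sources used. Removal of duplicates can lower the counts of abundant, short transcripts most, and its effect was not tested. Total counts ran from 15814863 to 24980864 (median 19469782.5), and 92 spike-in features without reads were left out.

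Groups were taken from the sample labels. EAM and control hearts of each day were compared with edgeR 4.0.16 (R 4.3.3; quasi-likelihood test, TMM scaling, 8 hearts a fit, genes reaching 10 reads in 4 or more hearts, Benjamini-Hochberg adjustment over all genes, false discovery rate 0.01); the difference between days used 1 fit of 24 hearts, and control hearts 1 fit of 12. DESeq2 1.42.0, limma 3.58.1 (voom), other scalings, other filters, the replicate block and leaving out single hearts were alternatives. The fit was also run on simulated data, and the outcome is not given or used here. Fold changes are edgeR's; levels are CPM over TMM-scaled libraries. Isoform ratios, added after the data were seen, were compared with exact permutation tests (scipy 1.17.1).

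Named were core subunits of each complex, isoform pairs, the 5 lowest and 5 highest members a day, members called against the median, and the 3 most changed called members in each direction between days and between control groups. A core subunit that this rule names is not reported here. Members and gene lists were chosen with earlier results of these data known. Nothing says the hearts of a group were processed apart, so p-values measure the spread between these hearts. Gene names, positions and exon lengths come from GENCODE M21 (GRCm38), not the annotation counted; 11 processed pseudogenes named like members took 0.0822% of the members' reads. Deviations of same-numbered EAM and control hearts correlated by 0.101 to 0.307 at D21, -0.0933 to 0.407 at D10 and -0.105 to 0.0427 at D15. At D10 replicates 1 and 4 (0.365 and 0.407) were above every D21 value. The main fits took no pairs on any day, and the replicate block was an alternative.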

Additional observations from a re-analysis of the deposited data

Results flagged for a closer look

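The EAM effect differed between days by the test of the difference itself. From D10 to D15, 87 members passed, all more negative, where 16.7% of all genes became more negative. The named ones were Cox7a1 (-1.54 on the log2 scale), Ndufs7 (-1.30) and Cox8b (-1.29). From D15 to D21, 76 passed, all more positive, where 8.47% of all genes became more positive. They were led by Ndufa12 (1.49), Ndufs6 (1.33) and Ndufb3 (1.28). The D21 EAM libraries alone carry another library code, which cannot be told apart from this difference. The count of 76 was 2 with the replicate block (0.919% of all genes more positive) and 0 when scaled to the cardiomyocyte list (0.190%). On that scale the D10 to D15 count was 2, where 0.895% of all genes became more negative and 30.2% more positive.

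In 6 cases 1 heart stood apart from the other three of its group, by a gap beyond Dixon's limit at the 95% level; chance flags about 1 in 20 groups, and 222 were examined. D10 control replicate 1 had the highest ratio of the 92 genes to the cardiomyocyte list in its group, 0.669. D10 control replicate 4 had the highest Cox7a1, 358 CPM, and replicate 2 the lowest Cox8a, 113 CPM. D15 control replicate 4 had the lowest Cox7a2l, 224 CPM, and so did D21 EAM replicate 4, 212 CPM. D15 EAM replicate 3 had the highest sum of the 8 complex I assembly factors, 187 CPM.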

How the results depend on the processing

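At D15 the count of members lower stood at 88 or 89 under DESeq2 size factors, total counts, TMM without mitochondrially encoded genes, no filter, DESeq2, the likelihood ratio test, limma-voom, all 12 controls and 1 fit of all 24 hearts. Scaling to the cardiomyocyte list gave 0 lower, 0 lower by 2-fold, 4 higher and a median of 0.0362 at D15, 2 changed with a median of -0.0804 for D15 minus D10, and 0 changed with a median of 0.12 for D21 minus D15. On that scale 13 named members that were lower with TMM at D15 had positive log2 fold changes: Cox4i1 0.14, Cox5a 0.13, Cox5b 0.19, Atp5b 0.15, Atp5c1 0.0364, Cox6a2 0.0057, Cox6b1 0.29, Cox7a2 0.26, Cox7a2l 0.69, Cox7b 0.18, Ndufa4 0.0382, Atp5g2 0.56 and Atp5g3 0.0451. Total counts gave 44 lower by 2-fold and 2 higher at D15, all 12 controls gave 2 higher and 1 fit of 24 hearts gave 0. At D21 the likelihood ratio test gave 1 lower and 2 higher, and so did 1 fit of 24 hearts. For neither is a share over all genes given, so these counts are not set against a background. All 12 controls gave 11 lower, 1 of them by 2-fold, and 2 higher, where 18.2% of all genes were lower and 25.1% higher. DESeq2 gave 2 higher, where 15.9% of all genes were. Between D10 and D21 controls, total counts gave 0, no filter 2 and DESeq2 21. DESeq2 called 3.64% of all genes lower there, and no share over all genes is given for the fit without filter. The cause of these changes was not tested. With the replicate block, D21 minus D15 fell to 2 changed members; the block changed no other count by over 1.5 times (85 for D15 minus D10, 88 lower at D15, 0 at D21).

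Leaving out 1 heart at a time gave 88 to 89 lower and 49 to 83 lower by 2-fold at D15 with medians from -1.27 to -1.005, medians from -0.18 to 0.00 at D10, and 0 to 2 higher with medians from -0.24 to 0.02 at D21. The changed members numbered 78 to 88 for D15 minus D10, 39 to 87 for D21 minus D15 and 0 to 1 for the D21 against D10 controls. The summed level of EAM over control hearts was 0.443 at D15, and raw CPM gave 0.501. With 4 hearts a group, an exact test of 1 value cannot go below 0.0286. Each member had at least 10 reads in every heart; the precision is lowest for low members such as Cox6b2, with 1308 reads over all 24 hearts.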
